A study of Mus musculus with 9 samples.

Results

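The leukocyte beta-2 and alpha-4 integrins examined here were 6 integrin chains and the integrin activator kindlin-3. They were the rows of the expression table whose gene symbol equalled Itgam, Itgax, Itgal, Itgb2, Itga4, Itgb7 or Fermt3, which gave 7 of 18049 genes. Bulk RNA-seq of poly(A) RNA was performed on 9 clones of murine primary cells cultured from pancreatic tumors (MPC) of WTg mice, a single group with no control group analysed here. WTg mice carry EL1-Luc/EL1-Tag, in which the elastase I promoter, active in pancreatic acinar cells, drives SV40 large T antigen and luciferase, and CAG-Mettl3, in which the broadly active CAG promoter drives the m6A writer Mettl3. Each library is 1 clone, isolated as a colony and grown in DMEM with serum, and whether several clones came from the same mouse is not stated. The labels give the treatment as none, although a protocol field names the PLK1 inhibitor NMS-P937 at 80 nM for 24 h, so whether the cells were exposed is not certain. The age and sex of the mice are not given in the sources used here.

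The 9 columns carry 3 name prefixes, MET with 1 library, Whe10 with 4 and Whe3 with 4, and the sources used here do not say what these prefixes stand for. Replicate numbers below only name a library. The names also hold a number each, of which 7A and 11A stand in both Whe10 and Whe3 names and 11A in the MET name. These numbers do not map the libraries to single sample titles. Each library held 12198036 to 20453901 recovered reads, with a median of 18082583. The MET library was the shallowest, and the next had 16526375 reads. A read was worth 1.26 to 2.19 normalized counts, so the smallest level taken as shown, 3 reads, was 3.79 to 6.56 normalized counts. Mettl3, the transgene's gene, stood at 2184 normalized counts in the MET library and at 468 to 621 in the others. Xist was at 29664 to 32912 normalized counts in the Whe10 libraries and at most 8.39 elsewhere, while the Y-linked Ddx3y was at 0 in the Whe10 libraries and at 2376 to 2720 elsewhere. The MET and Whe3 libraries thus shared 1 pattern, and between Whe10 and Whe3 prefix and sex-linked expression cannot be told apart.

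Integrins are heterodimers of an alpha and a beta chain that bind cells or matrix. The beta-2 chain Itgb2 (CD18) is found on leukocytes and pairs with Itgam (CD11b, complement receptor 3), Itgax (CD11c) or Itgal (CD11a, LFA-1). Itga4 pairs with the widely expressed Itgb1 or with the lymphocyte chain Itgb7. Fermt3 encodes kindlin-3, the kindlin of blood cells, which binds the tail of beta chains and is needed to switch these integrins to the binding state. Macrophages typically carry Itgam, Itgb2 and Fermt3.

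The labels call the cells fibroblasts. The 10 macrophage markers fixed for this check, among them Csf1r, Adgre1, C1qa and Lyz2, were all above the 3-read level in all 9 libraries, and their summed level was 492282 to 792595 normalized counts. Of 8 fibroblast markers, 7 were above that level in all 9 libraries, with Lum at 0 in 1 library, and their sum was 106127 to 413594. Of the T cell markers, Cd4, Lck and Trac together reached 35.0 to 300.5 normalized counts, while Cd3e, Cd3d, Cd3g and Cd8a were not analysed here. The epithelial marker Epcam was at 0 in all 9, which allows a level of up to 3.79 to 6.56 normalized counts. Krt8 and Krt18 reached at most 1.29 and 6.47. The epithelial markers Krt19 (7.23 to 145) and Cdh1 (8.91 to 152) were above the 3-read level in all 9 libraries. Of 6 acinar markers, Cela1 was above that level in all 9, at 144 to 293, and the acinar sum was 144 to 2415. In bulk RNA, fewer cells of a type and less RNA per cell cannot be told apart.

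The promoters are printed as sequence context only, and their part in the levels or in the relations over the clones was not tested. RefSeq promoter sequence of the GRCm38.p6 assembly was given for 5 of the 7 members. Itgal and Itgb2 had no entry. The 150 bases before each listed start are printed 5′ to 3′ on the gene's strand. Capitals mark GAGGAA, a core read by the macrophage factor PU.1, and TGTGGT, a core read by RUNX factors, both searched on both strands (TTCCTC and ACCACA on the other strand). The 2 motifs do not overlap each other.

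Itgam, chr7:128062490-128062639, plus strand: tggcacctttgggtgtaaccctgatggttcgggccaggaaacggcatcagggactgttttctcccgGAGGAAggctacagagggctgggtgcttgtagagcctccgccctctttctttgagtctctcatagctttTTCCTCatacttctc
Itgax, chr7:128129400-128129549, plus strand: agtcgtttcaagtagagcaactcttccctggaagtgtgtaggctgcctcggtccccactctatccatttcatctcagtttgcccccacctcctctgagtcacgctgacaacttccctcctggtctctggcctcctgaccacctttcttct
Itga4, chr2:79255276-79255425, plus strand: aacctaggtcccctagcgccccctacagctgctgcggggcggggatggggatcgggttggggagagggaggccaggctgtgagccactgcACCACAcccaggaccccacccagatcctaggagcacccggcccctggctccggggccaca
Itgb7, chr15:102231936-102232085, minus strand: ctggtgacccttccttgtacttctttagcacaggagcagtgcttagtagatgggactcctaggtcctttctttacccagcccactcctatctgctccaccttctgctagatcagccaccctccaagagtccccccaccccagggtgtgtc
Fermt3, chr19:7019470-7019619, minus strand: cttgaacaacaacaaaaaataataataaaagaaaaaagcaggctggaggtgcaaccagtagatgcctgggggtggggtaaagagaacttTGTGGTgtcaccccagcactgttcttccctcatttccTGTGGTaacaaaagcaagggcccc

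Itgam held 2 GAGGAA matches, whose first bases lie 84 and 15 bases before the start. Itga4 held 1 TGTGGT match at 60 bases, and Fermt3 held 2, at 61 and 24 bases. In the 150-base windows of all 32851 listed promoters, 14.5% held GAGGAA and 8.40% held TGTGGT. The Itgax and Itgb7 windows held neither set of letters. For both of these genes the listed start lies inside the annotated gene, so another start may be in use. A match is a description of letters only.

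**Figure D1:**
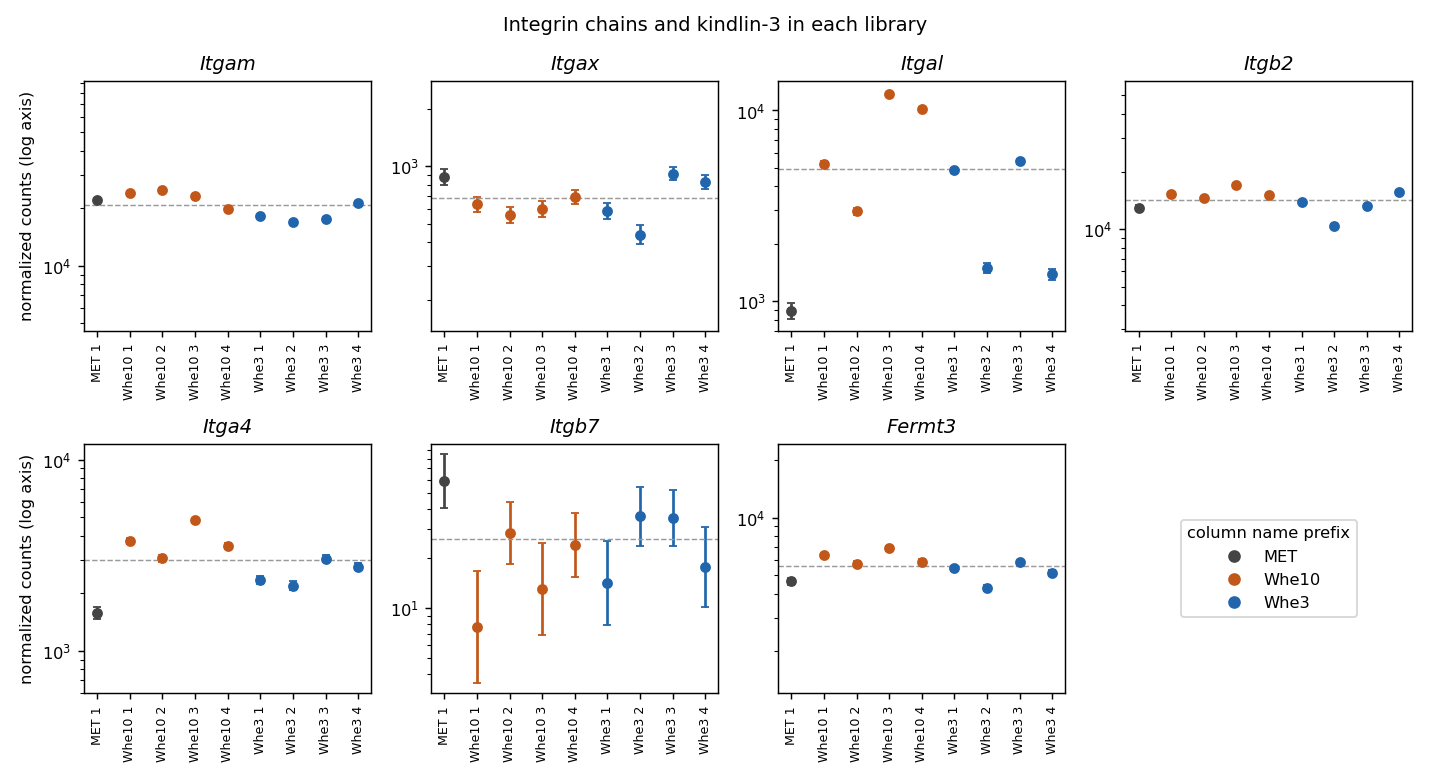
Normalized counts (log axis, a separate range in each panel) of each member in each library. Points are libraries coloured by column name prefix, bars are 95% Wilson intervals of the read count, and the dashed line is the mean of 9. Itgal spanned from 886 in the MET library to 12149 in Whe10 replicate 3, while Itgam spanned from 16968 to 25054.

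All 7 members were above the 3-read level in all 9 clones, and they differed in how much they varied between clones. Itgam, Itgb2 and Fermt3 stayed within 1.48-, 1.63- and 1.61-fold. Itgal spanned 13.7-fold, Itga4 3.06-fold and Itgax 2.08-fold. Itgb7 rested on few reads. The SD of log2 levels over the 9 clones was 0.20 for Itgam, 0.21 for Itgb2 and 0.22 for Fermt3, beside a median of 0.21 over 12301 genes whose mean reached 50 normalized counts. It was 1.32 for Itgal, higher than in 97.3% of those genes, 0.47 for Itga4, higher than in 83.2%, and 0.35 for Itgax, higher than in 72.9%. Intervals on single library values cover counting error only, and since transcript lengths were not used, levels are compared between clones and not between genes.

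Among the alpha chains of the beta-2 integrins, Itgam (ENSMUSG00000030786, chr7:128062640-128118491) had a mean of 20886 ± 2929 normalized counts (SD, n = 9). It stood at 21971 in the MET library. In the Whe10 libraries it was 24060, 25054, 23125 and 19700, and in the Whe3 libraries 18129, 16968, 17652 and 21317. The Whe10 values were mostly the higher ones, with Whe10 replicate 4 below Whe3 replicate 4, so the prefixes overlapped. With the clones in order of level, 2 of the 8 neighbouring pairs had overlapping 95% Wilson intervals.

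Itgax (ENSMUSG00000030789, chr7:128129526-128150657), a chain raised in dendritic cells and some tissue macrophages, had a mean of 680 ± 161 normalized counts (SD, n = 9). It was 880 in the MET library, 631, 557, 595 and 694 in the Whe10 libraries, and 583, 439, 914 and 824 in the Whe3 libraries. The highest and the lowest clones were both Whe3 libraries. Neighbouring clones were often close, with 6 of 8 pairs having overlapping intervals.

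Itgal (ENSMUSG00000030830, chr7:127296139-127335137), the chain of LFA-1 and the principal beta-2 partner on lymphocytes, was the most variable member. Its mean was 4953 ± 3951 normalized counts (SD, n = 9). The MET library was lowest at 886 normalized counts. The Whe10 libraries stood at 5237, 2963, 12149 and 10204, and the Whe3 libraries at 4852, 1491, 5415 and 1379. Both prefixes of 4 held clones about 4-fold apart, at 4.10-fold within Whe10 and 3.93-fold within Whe3, and the prefixes overlapped. Without the MET library the span was 8.81-fold. Only 2 of 8 neighbouring pairs had overlapping intervals, so most of the steps between clones were larger than counting error.

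The beta chain Itgb2 (ENSMUSG00000000290, chr10:77530329-77565708) had a mean of 14195 ± 1901 normalized counts (SD, n = 9). It was 12957 in the MET library. The Whe10 libraries lay at 15300, 14460, 16945 and 15027, and the Whe3 libraries at 13881, 10377, 13168 and 15642. Whe3 replicate 2 was the lowest clone and Whe10 replicate 3 the highest, and the prefixes overlapped. In order of level, 3 of 8 neighbouring pairs had overlapping intervals.

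Itga4 (ENSMUSG00000027009, chr2:79255426-79333114), the alpha chain of the VCAM-1 and fibronectin receptor VLA-4, had a mean of 3002 ± 956 normalized counts (SD, n = 9). It stood at 1569 in the MET library. The Whe10 libraries held 3764, 3046, 4807 and 3519, and the Whe3 libraries 2341, 2191, 3023 and 2757. Itga4 was the member whose Whe10 and Whe3 values did not overlap, although Whe10 replicate 2 and Whe3 replicate 3 differed by less than their counting intervals. That ordering, every Whe10 library above every Whe3 library, held for 5.74% of the 14705 genes tested.

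Itgb7 (ENSMUSG00000001281, chr15:102215994-102233405), the lymphocyte partner of Itga4, was measured with 6 to 27 reads per library. Its level was 59.1 normalized counts in the MET library (95% Wilson interval 40.6 to 86.0). It was 7.64, 28.5, 13.0 and 24.0 in the Whe10 libraries and 14.2, 35.9, 35.0 and 17.7 in the Whe3 libraries, with a mean of 26.1 ± 15.8 (SD, n = 9). All 8 neighbouring pairs in order of level had overlapping intervals, so differences between neighbours were not detectable at this depth.

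Fermt3 (ENSMUSG00000024965, chr19:6998958-7019469) had a mean of 5580 ± 816 normalized counts (SD, n = 9). It was 4635 in the MET library, 6359, 5729, 6902 and 5884 in the Whe10 libraries, and 5420, 4286, 5859 and 5144 in the Whe3 libraries. Whe3 replicate 2 was again the lowest clone and Whe10 replicate 3 again the highest, as for Itgb2. The prefixes overlapped, and 5 of 8 neighbouring pairs had overlapping intervals.

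The MET library lay below all the other clones for Itgal and Itga4 and above all of them for Itgb7. Among the 14705 genes tested, whose mean reached 10 normalized counts, it lay below the other 8 libraries for 20.4% and above them for 19.9%, so 3 of 7 members outside the others' range is read against those shares. The mean of the other 8 was 5461 ± 3897 normalized counts for Itgal (SD, n = 8), 3181 ± 845 for Itga4 and 22.0 ± 10.5 for Itgb7, so the MET library was at 0.162 of it for Itgal and at 2.69 times it for Itgb7. With 1 library this difference has no replicate check, and Mettl3, depth and prefix cannot be told apart in it.

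Ratios between genes in the same library do not depend on the scaling between libraries, and here they are compared only from clone to clone. The read ratio of Itgal to Itgam ran from 0.0403 in the MET library to 0.525 in Whe10 replicate 3, a 13.0-fold span. The ratio of Itgax to Itgam ran from 0.0222 to 0.0518, a 2.33-fold span. By contrast the ratio of Fermt3 to Itgb2 stayed between 0.329 and 0.445, a 1.35-fold span, and Itgam to Itgb2 stayed between 1.31 and 1.73. The makeup of the alpha chains thus varied between clones more than the ratio of kindlin-3 to the beta-2 chain. Of the reads of Itgam, Itgax and Itgal together, Itgal took 3.73% to 33.9% across the clones (mean 17.3% ± 11.3, SD, n = 9), Itgam 64.4% to 92.6% and Itgax 1.66% to 3.81%. The partner Itgad was not analysed here.

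**Figure D2:**
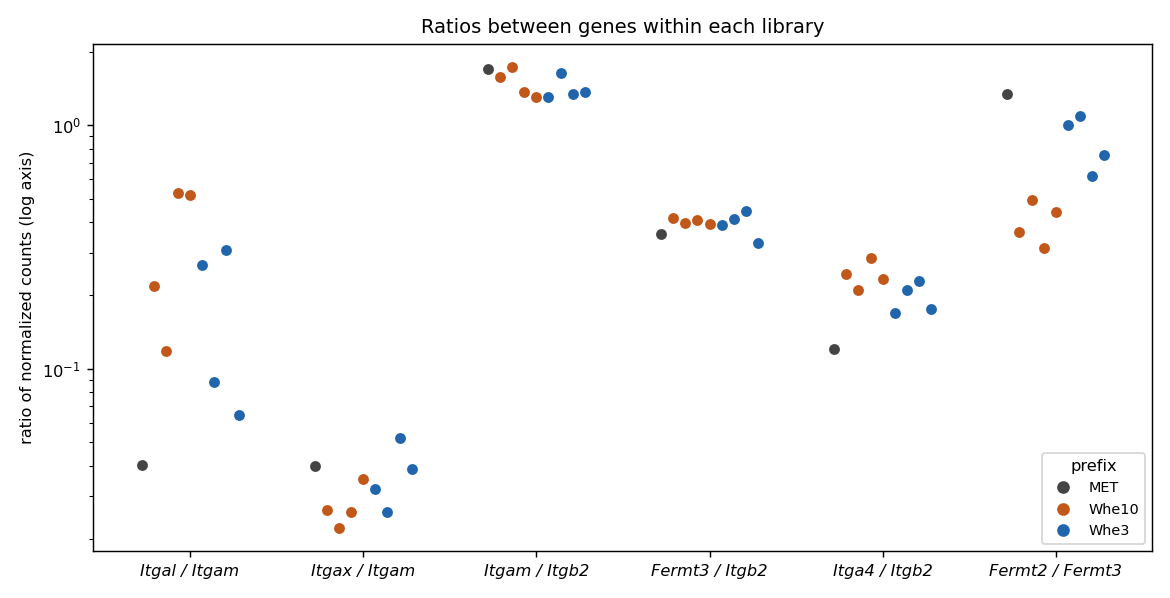
Ratios of normalized counts between pairs of genes within each library (log axis), points coloured by prefix. The Itgal to Itgam ratio spread 13.0-fold over the clones and the Fermt3 to Itgb2 ratio 1.35-fold. The Fermt2 to Fermt3 ratio was 0.312 to 0.491 in the 4 Whe10 libraries and 0.619 to 1.09 in the 4 Whe3 libraries. The difference of this ratio between prefixes was not tested.

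The 4 Whe10 libraries were then compared with the 4 Whe3 libraries by limma on log2(normalized counts + 1) over 14705 genes. In this comparison prefix and sex-linked expression cannot be told apart. No member passed an adjusted p under 0.05 (Benjamini-Hochberg over all genes tested). Of all genes, 0.0816% were called higher in Whe10 and 0.116% lower, 29 genes in all, and 2963 had an unadjusted p under 0.05. Of the 7 members, 5 had a positive log2 difference, Whe10 minus Whe3, and the median over the 7 was 0.27, beside 0.02 over all genes tested.

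Itga4 had the smallest adjusted p among the members, with a log2 difference of 0.55 ± 0.15 (SE, limma adjusted p = 0.16). Itgal had the largest difference and also the largest error, 1.29 ± 0.60 (SE, limma adjusted p = 0.27). Itgam differed by 0.31 ± 0.11 (SE, limma adjusted p = 0.19). Before adjustment over the 14705 genes, the limma p was 0.0067 for Itga4, 0.0195 for Itgam and 0.062 for Itgal. An unadjusted p under 0.05 was found for 2963 genes, so none of these differences is read as a call.

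Fermt3 differed by 0.27 ± 0.11 on the log2 scale (SE, limma adjusted p = 0.22) and Itgb2 by 0.23 ± 0.13 (SE, limma adjusted p = 0.33). For Itgax the log2 difference was -0.10 ± 0.22 (SE, limma adjusted p = 0.81), and for Itgb7 -0.52 ± 0.49 (SE, limma adjusted p = 0.55). Itgax thus had a difference smaller than its error. A missed threshold does not show that the members were alike in the 2 prefixes.

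The macrophage markers lay in the same direction, with 0 of 10 called and a median log2 difference of 0.35, and their summed level was 625181 to 707585 normalized counts in the Whe10 libraries and 492282 to 792595 in the Whe3 libraries. The fibroblast markers had 0 of 8 called and a median of -0.70, with sums of 106127 to 223445 in the Whe10 and 186253 to 413594 in the Whe3 libraries. The part of the cell makeup in the members' differences was not tested.

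**Figure D3:**
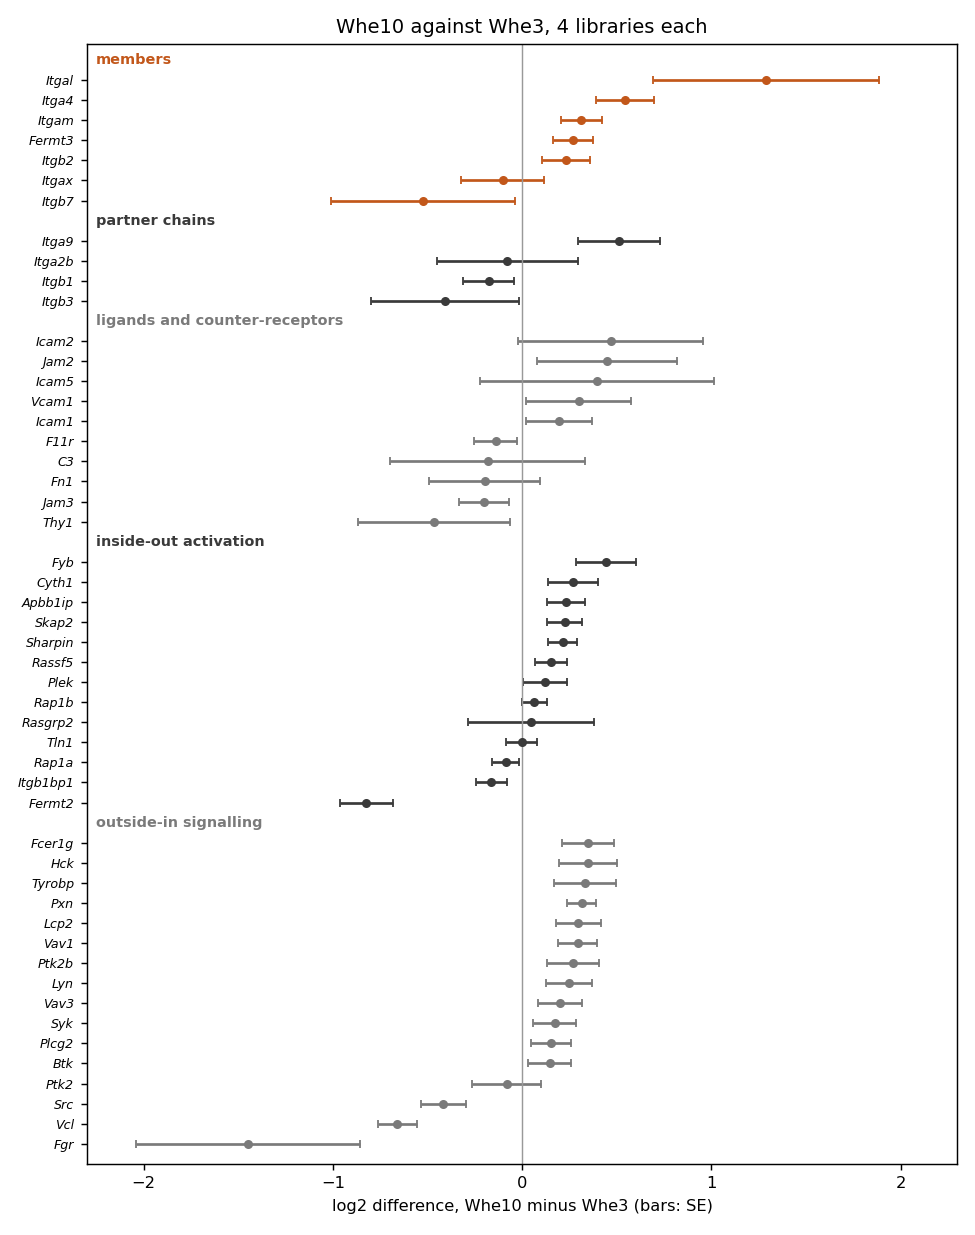
Log2 difference, Whe10 minus Whe3, of the members and of the tested genes of 4 pathway lists (x axis; points are limma estimates from 4 libraries against 4, bars are SE). No gene shown passed an adjusted p under 0.05. Fermt2 at -0.82 and Vcl at -0.66 came nearest.

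The other chains and the proteins around these integrins were given by 4 lists. Among the partner chains, 0 of the 4 tested genes passed the limma test in either direction, with a median log2 difference of -0.13. Itgb1, the other beta partner of Itga4, had a mean of 37159 ± 5448 normalized counts (SD, n = 9). Itgae, the lymphocyte alpha chain that pairs with Itgb7, did not exceed 3 reads in any library.

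Among the ligands and counter-receptors, 0 of 10 tested genes passed in either direction, with a median of 0.03. Fn1, whose product fibronectin is bound by alpha-4 beta-1, was present at 201242 to 432514 normalized counts. Vcam1, another ligand of Itga4, was at 2314 to 6307, and Icam1, a ligand of Itgal and Itgam, at 653 to 1164. Madcam1, the gut ligand of alpha-4 beta-7, was at 0 reads in all 9 libraries, so at the depth of each library a level of up to 3.79 to 6.56 normalized counts remains possible. The clones therefore held transcripts of ligands of the beta-2 and alpha-4 beta-1 integrins as well as of the receptors.

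Among the genes of inside-out activation, the signalling that switches integrins on from within, 0 of 13 tested genes passed, with a median of 0.12. Tln1, which encodes talin, the other activator that binds beta chain tails, was at 24238 to 29326 normalized counts. Rap1b, a small GTPase upstream of talin, was at 7760 to 9987. Fermt2, the kindlin of adherent non-blood cells, was at 6204 in the MET library, 2153 to 2813 in the Whe10 and 3629 to 5420 in the Whe3 libraries. Its Whe10 and Whe3 values did not overlap, but the share of all genes with Whe10 below Whe3 in this way was not counted. The opposite ordering held for 5.74% of the 14705 genes tested, which does not give that share, so the separation of Fermt2 is a description only. For Fermt2 the log2 difference was -0.82 ± 0.14 (SE, limma adjusted p = 0.078). Without Whe3 replicate 3 this became -0.91 (adjusted p = 0.034), and Fyb, an adaptor of integrin activation in leukocytes, was also called, at 0.61 (adjusted p = 0.028). In that setting 259 of 14705 genes were called, against 29 with all 8 libraries, 1.09% higher and 0.673% lower in Whe10, and the fibroblast marker Pdgfra was among them at -2.08 (limma adjusted p = 0.045). No listed gene was called in any other alternative run.

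Fermt2 and Fermt3 thus had differences of opposite sign between the prefixes, neither of them called with all 8 libraries. The ratio of Fermt2 to Fermt3 was 0.312 to 0.491 in the Whe10 libraries, 0.619 to 1.09 in the Whe3 libraries and 1.34 in the MET library. The difference of this ratio between prefixes was not tested. The macrophage and fibroblast marker sums given above overlapped between the prefixes. Lyz2 alone had means of 424731 (Whe10) and 386570 (Whe3) normalized counts, so the macrophage sum mostly follows Lyz2. Among single markers, every Whe10 library lay above every Whe3 library for Adgre1, C1qb and Mertk, and below for Pdgfra and Vim. The other macrophage and fibroblast markers overlapped, and the fibroblast markers Dcn and Lum had positive differences (1.79 and 2.07). None of these markers was called with all 8 libraries, and their part in the ratio was not tested.

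Among the genes of outside-in signalling, which carry the signal from bound integrins into the cell, 0 of 16 tested genes passed, with a median of 0.23. The myeloid adaptor Tyrobp was at 7940 to 16310 normalized counts and Syk, the kinase it recruits, at 3945 to 5450. Vcl, which encodes vinculin of focal adhesions, had a log2 difference of -0.66 ± 0.10 (SE, limma adjusted p = 0.062), and without Whe3 replicate 3 it was called at -0.69 (adjusted p = 0.039). Pxn, which encodes paxillin, a protein that binds the tail of Itga4, had a log2 difference of 0.31 ± 0.08 (SE, limma adjusted p = 0.15).

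Next, 7 relations between members, partners and the macrophage marker score were tested over the clones by exact two-sided permutation tests, with Benjamini-Hochberg adjustment over the 7. The score is the mean log2 level of the 10 macrophage markers, and it was 14.17 in the MET library, 14.49 to 14.81 in the Whe10 libraries and 14.02 to 14.57 in the Whe3 libraries. Itgb2 followed the score, with Pearson's r = 0.842 (exact permutation p = 0.0014, adjusted 0.0098, n = 9) and Spearman's rho = 0.867 (exact permutation p = 0.0045, adjusted 0.032). Fermt3 followed Itgb2, with r = 0.816 (exact permutation p = 0.0061, adjusted 0.021, n = 9), whereas rho = 0.700 did not pass after adjustment (exact permutation p = 0.043, adjusted 0.10).

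Neither relation held at the same level in all subsets. When the 2 clones lying furthest out on the x measure were dropped, r was 0.842 for the score with Itgb2 (exact permutation, adjusted p = 0.067). For Fermt3 with Itgb2 it was then 0.480 (exact permutation, adjusted p = 0.48). Dropping the outermost clones narrows the range of x and leaves n = 7, which by itself can lower r. Centred within Whe10 and within Whe3, r was 0.751 and 0.717 (both with exact permutation, adjusted p = 0.30), and none of the 7 relations passed there. Without the MET library, the adjusted p of Fermt3 with Itgb2 was 0.055 by the same exact test.

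The other 5 relations did not pass. For Itgam with Itgb2 r was 0.659 and rho 0.567 (exact permutation p = 0.044 and 0.12, adjusted 0.077 and 0.21, n = 9). For Itgal with Itgb2 r was 0.551 and rho 0.467 (exact permutation p = 0.12 and 0.21, adjusted 0.17 and 0.30, n = 9), and for Itgax with Itgb2 r was 0.291 and rho 0.067 (exact permutation p = 0.46 and 0.88, adjusted 0.53 and 0.88, n = 9). The shared beta-2 chain was thus not shown to follow any single alpha chain across the clones.

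For Itga4 with Itgb7 r was -0.690 and rho -0.717 (exact permutation p = 0.039 and 0.037, adjusted 0.077 and 0.10, n = 9). For Itga4 with Itgb1 r was -0.116 and rho -0.200 (exact permutation p = 0.77 and 0.61, adjusted 0.77 and 0.72, n = 9), and without the MET library r was -0.748 (exact permutation, adjusted p = 0.057). The ratio of Itga4 to Itgb1 ran from 0.0514 to 0.156 over the clones.

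**Figure D4:**
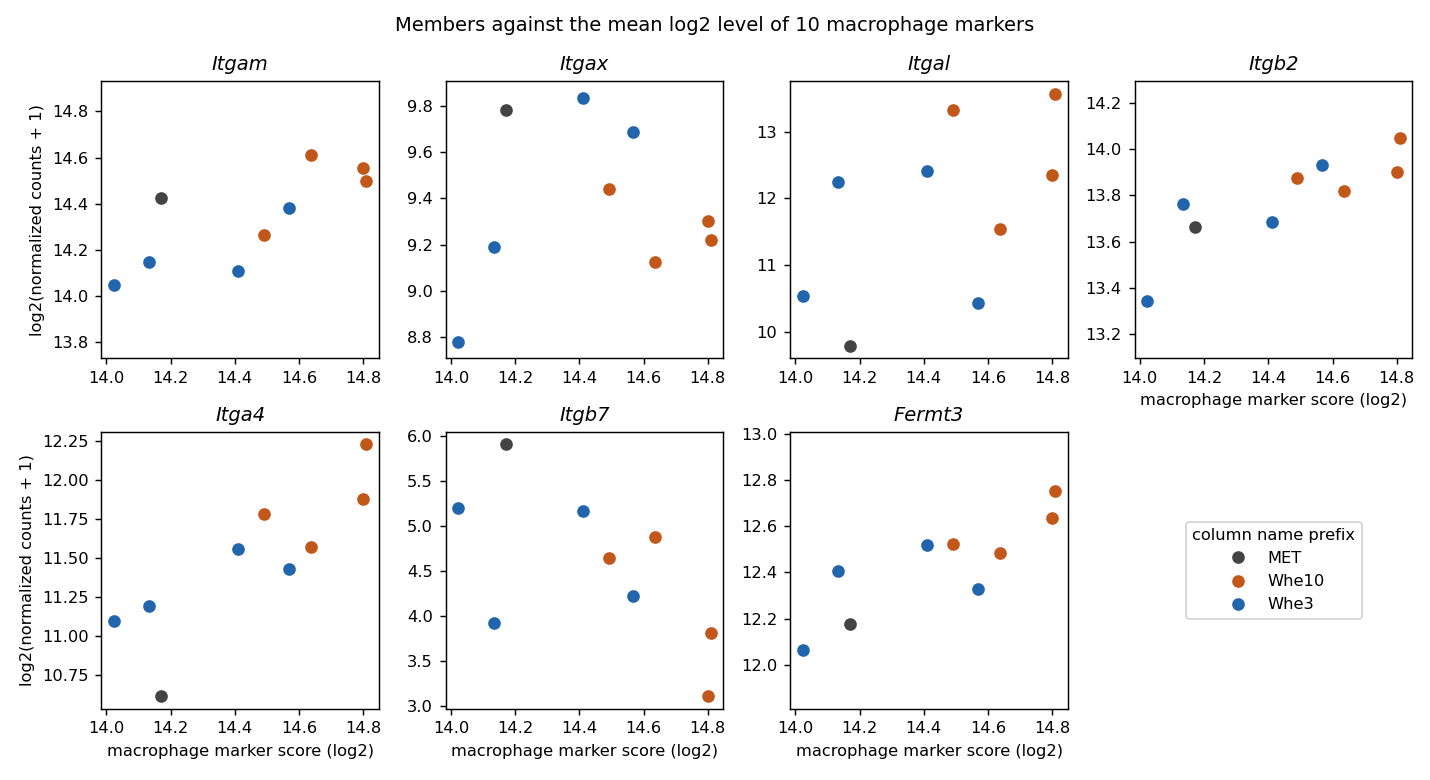
Level of each member as log2(normalized counts + 1) against the macrophage marker score (mean log2 level of 10 markers), 1 point per library, coloured by prefix, with a separate y range in each panel. Itgb2 rose with the score (r = 0.842), whereas Itgax did not line up with it (r = 0.115).

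After these values were seen, all 21 pairs of members and the 7 members with the score were also computed, 28 pairs adjusted together. By r, 7 pairs passed, by rho 4, without the MET library 6 by r, and centred within prefixes 0. Fermt3 with Itga4 had r = 0.894 (exact permutation p = 0.0014, adjusted 0.020, n = 9) and rho = 0.95 (exact permutation p = 0.00035, adjusted 0.0099). Fermt3 with Itgal had r = 0.860 (exact permutation p = 0.0030, adjusted 0.021, n = 9) and Itgal with Itga4 r = 0.837 (exact permutation p = 0.0044, adjusted 0.021, n = 9). For Itgal with Itga4 rho was 0.817 and did not pass (exact permutation, adjusted p = 0.0503), and without the MET library neither r = 0.746 nor rho = 0.738 passed (exact permutation, adjusted p = 0.094 and 0.16). Without that library Fermt3 kept r = 0.906 with Itga4 and r = 0.826 with Itgal (exact permutation, adjusted p = 0.033 and 0.046). Centred within prefixes these 3 values of r were 0.808, 0.712 and 0.558, each with an adjusted p of 0.38 or 0.39 by the exact permutation test.

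Itga4 and Fermt3 also passed by r with the macrophage score, at r = 0.845 for Itga4 and r = 0.845 for Fermt3 (both exact permutation, adjusted p = 0.021, n = 9). By rho, Itga4 passed at 0.867 and Fermt3 did not at 0.783 (exact permutation, adjusted p = 0.032 and 0.054). Itgam with the score had r = 0.753 and did not pass (exact permutation, adjusted p = 0.086). Without the MET library Itgam had r = 0.880 and rho = 0.881, of which only r passed (exact permutation, adjusted p = 0.033 and 0.051). Itgal with the score had r = 0.532 (exact permutation, adjusted p = 0.23, n = 9). Taken relative to the score, the SD of log2 levels was 0.28 for Itga4, against 0.47 as measured, and 1.19 for Itgal, against 1.32. The spread of Itgal between clones was nearly as large relative to the macrophage markers as it was in the measured levels. The score itself had an SD of only 0.29, so subtracting it could not remove most of that spread. The part of macrophage content in it was not tested.

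The genes most like each member were taken as the 3 with the highest Pearson r over the 9 clones among 12295 genes whose mean reached 50 normalized counts, as a description. With 9 points and shared libraries, high values are common: 591 genes reached r of at least 0.9 with Fermt3 and 489 with Itga4, against 26 with Itgam and 5 with Itgax. For Itgal they were Slc7a8, an amino acid transporter (r = 0.993), Adgb (0.984) and the arginine transporter Slc7a2 (0.976). For Itgb2 they were Tyrobp (0.970), the proton pump subunit Atp6v0b (0.967) and Tmem86a (0.966).

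For Itga4 the nearest were the transcription factor Irf2 (r = 0.989), Pxn (0.987) and Dmac1 (0.987), and for Fermt3 Naip5, a cytosolic sensor of bacterial flagellin (0.993), Blvrb (0.992) and Hprt (0.992). For Itgam they were Crat (0.971), Dnajc30 (0.967) and Snap23 (0.967), for Itgax Nostrin (0.970), Htatip2 (0.960) and Ndufaf1 (0.949), and for Itgb7 Lockd (0.952), Ercc8 (0.937) and Nde1 (0.924). Centred within prefixes, the first-named gene kept r of at least 0.95 for every member, while the 3 nearest genes then shared 1 gene with those above for Itgam, Itgal, Itga4 and Itgb7 and 0 for Itgax, Itgb2 and Fermt3.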

How the data were processed

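Poly(A) RNA of 9 WTg clones was sequenced from TruSeq stranded libraries. The submitters' processing notes name FastQC 0.11.9, STAR 2.7.10, RSEM 1.3.3 and the build GRCm38, with no role or order given. The authors deposited log2 values of scaled counts, to which an offset of 4 had been added. The table also holds 6 columns that name other series. These were not used, and the comparison of the clones with mouse embryonic fibroblasts was not analysed here.

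Normalized counts were recovered as the power of 2 of each value minus 4, and reads by dividing by the spacing of the low values. Of the nonzero values up to 1000 reads, 100% were whole within 0.1 read. The depth was 12198036 to 20453901 reads. Intervals are Wilson intervals at 95%.

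Column names give the group, and the numbers in them do not map the columns to single sample titles. Replicates are clones, and if clones share a mouse the p-values measure only the spread between these clones. Whe10 and Whe3 libraries were compared by limma 3.58.1 (lmFit, eBayes with trend, R 4.3.3) on log2(normalized counts + 1) for genes whose mean reached 10 normalized counts, at an adjusted p under 0.05. The test was tested on simulated data of 14705 genes, with a dispersion of 0.02 for every gene, in which 48% of genes changed 1.5-fold and 89% of those changed 2-fold were recovered and 4.95% and 4.30% of calls were unchanged genes. Members that vary more, such as Itgal, are not covered by it. Relations were tested by exact permutation of all 362880 pairings, and centred values over the 576 pairings within prefixes. The other steps ran in Python 3.11.15 (scipy 1.17.1, pandas 2.3.3, numpy 2.4.6, with matplotlib 3.10.9 for plots).

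Members and lists were chosen with earlier results of these data known. Named genes are the members, any gene of the lists, and the 3 genes most like each member. Gene positions are RefSeq positions on GRCm38.p6, matched by identifier for 7 of 7 members. Gene lengths were not used, so the order of levels between members and shares divided by length were not computed. Alternatives were other pseudocounts, scalings and filters, voom on recovered reads, and left-out libraries. Rescaling the comparison to library totals, leaving out libraries for the alpha chain shares, a block on the numbers in the column names, and the 28 pairs were added after seeing the data.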

Additional observations from a re-analysis of the deposited data

Results flagged for a closer look

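Library values were examined for 1 clone standing far from the rest, in the members over all 9 clones and within each prefix of 4, and in the listed pathway genes over the 9 clones, 66 groups of values in all. A value was taken as apart where its gap to the nearest other clone, divided by the whole range, exceeded Dixon's 95% critical value for that number of clones. Chance gives about 1 in 20 groups, or 3.3 here, and 4 were found. None of the 21 groups of member values was among them.

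The values that stood apart were Fgr, a Src family kinase of myeloid cells, in Whe3 replicate 4 (gap over range 0.838, at 592 normalized counts), Jam2 in Whe10 replicate 2 (0.554, at 1585), Vcam1 in Whe10 replicate 2 (0.531, at 6307) and Fn1 in Whe3 replicate 2 (0.503, at 432514).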

How the results depend on the processing

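Mean levels of the 7 members moved by less than 1 SD in all 77 alternatives (2 rescalings and each library left out). The alpha chain shares did so in all leave-one-out runs. Leaving out 1 of 9 values cannot move a mean by 1 SD, so that outcome was fixed for the leave-one-out runs. The rescaling factors were also small, at most 0.068 on the log2 scale. Over these alternatives the mean of Itgal ran from 4054 to 5461 normalized counts. No member was called between Whe10 and Whe3 in any of 15 alternatives each, with adjusted p from 0.084 up. Itgax changed sign without Whe3 replicate 3 (0.052) and without Whe3 replicate 4 (0.0025), with -0.30 to 0.052 over the left-out libraries. The count of genes called was 29, between 23 and 37 over the other settings without a block, and 9 to 259 with a library left out (3 to 160 higher, 6 to 99 lower). The 259 came without Whe3 replicate 3, where 2 genes of inside-out activation (range 0 to 2) and 1 of outside-in signalling (range 0 to 1) were called, as was the fibroblast marker Pdgfra (-2.08). Whe3 replicate 3 was also the highest library for the acinar genes Prss2 (554 normalized counts), Ctrb1 (610), Cpa1 (509), Amy2a5 (306) and Cela2a (147). The acinar gene Cela1 was highest in Whe10 replicate 1. The cause of the larger count was not tested. Fermt3 with Itgb2 had r = 0.822 without MET replicate 1, 0.480 without the 2 farthest clones and 0.717 centred within prefixes, and the macrophage score with Itgb2 0.842 and 0.751 in the latter settings, none of them under an adjusted p of 0.05. Itgax with Itgb2 turned to -0.316 without the 2 farthest clones. The numbers 7A and 11A stand in the column names of both prefixes, with no stated meaning. As a replicate block, which rests on these 2 pairs, they gave 0 genes called by limma (0 higher, 0 lower, 1073 at an unadjusted p under 0.05), and Itgb7 turned to 0.27. Deviations from the prefix means correlated at -0.03 and -0.04 in the pairs. Whether the paired libraries share more than a number was not tested. GEO's labels give 1 group, so they pair none. The order of member levels and length-divided shares, with and without Itgad, were not run. Depth limits Itgb7, at 6 to 27 reads.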
